A study of Homo sapiens with 6 samples.

Results

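The Kruppel-like factors are described here through the transcripts of 10 family members, KLF2, KLF3, KLF4, KLF5, KLF6, KLF7, KLF9, KLF10, KLF11 and KLF13, which were taken by symbol from the 58735 gene rows of each expression table. SKOV3, a long-established line of ovarian carcinoma cells of human origin, was profiled by RNA sequencing. The TIPE2 group held 3 libraries of cells that received a lentivirus with human TIPE2 cDNA, the product of the gene TNFAIP8L2, and the Vector group held 3 libraries of cells that received the empty vector. Per the labels, transduced cells were selected with puromycin as a stable line; the labels name no promoter driving the transgene and do not say whether a clone or a pool was used. Libraries are called TIPE2 1 to 3 and Vector 1 to 3. They are labelled biological replicates, but separate transductions are nowhere stated, and p-values thus cover only the spread among these samples.

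Kruppel-like factors are transcription factors with a set of C2H2 zinc fingers at the carboxy terminus, which bind GC boxes and CACCC elements in promoters. The zinc fingers are much alike across the family and also in the SP factors, while the amino-terminal parts differ and recruit different partners. KLF2, KLF4, KLF5, KLF6 and KLF7 are mainly known as activators that work with acetyltransferases such as EP300, although KLF4 also represses. KLF3 recruits the corepressor CtBP, and KLF9, KLF10, KLF11 and KLF13 recruit the corepressor Sin3A. In epithelia KLF4 is known as a brake on proliferation and KLF5 as a driver of it, and several members are switched on quickly by serum, shear stress or TGF-beta.

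Promoter windows, from 250 bases before to 50 bases after a RefSeq gene start (GRCh38.p14), were found for 8 of the 10 members; KLF3 and KLF10 did not match. Shown here are KLF2 and KLF6, the members that lay furthest above their own mean in a single library, and KLF4 and KLF9, whose TIPE2 and Vector values did not overlap. Capitals mark GGGCGG on either strand, the core of a GC box to which KLF and SP proteins bind, and the match to the MEF2 consensus in KLF2. The windows lie at chr19:16324576-16324875 on the plus strand for KLF2, chr10:3785160-3785459 on the minus strand for KLF6, chr9:107489720-107490019 on the minus strand for KLF4 and chr9:70414608-70414907 on the minus strand for KLF9, and each is written 5′ to 3′ along its gene. The RefSeq starts used for KLF2, KLF6 and KLF4 lie inside their GENCODE 29 genes, furthest for KLF4. Those windows are therefore not upstream of the whole gene.
KLF2: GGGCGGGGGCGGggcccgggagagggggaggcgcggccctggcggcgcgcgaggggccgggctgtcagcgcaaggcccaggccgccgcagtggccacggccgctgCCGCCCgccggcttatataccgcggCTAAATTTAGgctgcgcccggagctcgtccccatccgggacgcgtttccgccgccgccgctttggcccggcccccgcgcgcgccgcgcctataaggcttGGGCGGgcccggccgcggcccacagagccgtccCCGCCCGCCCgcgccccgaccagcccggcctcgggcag
KLF6: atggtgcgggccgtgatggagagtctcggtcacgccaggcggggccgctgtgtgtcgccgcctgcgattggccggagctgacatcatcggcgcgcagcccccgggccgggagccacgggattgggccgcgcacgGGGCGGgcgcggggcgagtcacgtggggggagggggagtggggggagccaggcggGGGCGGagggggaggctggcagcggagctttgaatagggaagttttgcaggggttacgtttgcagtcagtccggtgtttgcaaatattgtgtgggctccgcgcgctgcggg
KLF4: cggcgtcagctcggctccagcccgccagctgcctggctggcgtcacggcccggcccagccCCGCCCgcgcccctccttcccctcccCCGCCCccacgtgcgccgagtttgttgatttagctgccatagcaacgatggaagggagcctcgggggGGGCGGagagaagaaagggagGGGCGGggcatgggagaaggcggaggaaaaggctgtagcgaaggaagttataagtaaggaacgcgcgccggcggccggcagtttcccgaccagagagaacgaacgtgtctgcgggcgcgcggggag
KLF9: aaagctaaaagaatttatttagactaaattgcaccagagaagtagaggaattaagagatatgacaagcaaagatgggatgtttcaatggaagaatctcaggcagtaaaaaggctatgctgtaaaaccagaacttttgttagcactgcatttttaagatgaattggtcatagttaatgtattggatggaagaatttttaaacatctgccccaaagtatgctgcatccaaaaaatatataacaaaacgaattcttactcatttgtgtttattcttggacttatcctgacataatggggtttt

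The KLF2 window held 6 copies of GGGCGG on both strands together and 80.7% G+C, the KLF4 window 4 copies and 69.0%, and the KLF6 window 2 copies and 70.7%. The KLF9 window held no copy and 32.7% G+C. Some members have several starts, and the 8 members had 13 windows in all. GGGCGG was present in 8 of these 13 windows, which belonged to every matched member but KLF9, and in 45.0% of the 35116 windows of all genes. The shorter CACCC, which can share end letters with GGGCGG, was present in 7 of the 13 windows, those of 4 members, and in 59.9% of all windows. The forkhead core TGTTTAC, the kind of site read by FOXO factors, was in no member's window and in 3.42% of all windows. KLF2 is known as a target of the kinase MAPK7 through MEF2 factors, and its window held the match CTAAATTTAG beginning 120 bases before the gene start; the MEF2 consensus was in 0.572% of all windows. These matches describe letters and not occupied sites.

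The label of the cells was checked first. TNFAIP8L2 had 58.4, 47.2 and 48.8 FPKM (fragments scaled by exon length and a size factor of the library) in TIPE2 1, 2 and 3, against 0, 0.0476 and 0 FPKM in Vector 1, 2 and 3, so the groups stood apart as labelled. These were 1322, 971 and 959 fragments against 0, 1 and 0, where a count of 0 allows up to 3 as a 95% Poisson bound on the upper side only. Libraries held 15983317 to 18583473 fragments on genes. Of 8 carcinoma markers, 7 had a mean of at least 1 FPKM, MUC16 being the exception, with a summed level between 1186 and 1437 FPKM in TIPE2 libraries, against between 1366 and 1500 FPKM in Vector libraries. By group means ERBB2 made up the largest share of that sum, with 702 ± 150 FPKM in TIPE2 cells, against 534 ± 131 FPKM in Vector cells (SD, n = 3 each). In Vector 1 the marker KRT7, at 384.0 FPKM, was just above ERBB2 at 383.2 FPKM. Of the 7 tested carcinoma markers, 5 were lower in TIPE2 cells, as were 6406 of all 12538 genes tested. Every TIPE2 library lay below every Vector library for 5.31% of all genes tested. Among the markers this held for KRT7, at 151 ± 13.7 FPKM in TIPE2 cells, against 309 ± 71.8 FPKM in Vector cells. It also held for KRT18, at 71.6 ± 4.23 FPKM in TIPE2 cells, against 107 ± 24.2 FPKM in Vector cells. Neither passed (limma, adjusted p = 0.343 and 0.743), and their part in the other results was not tested. Endothelial markers summed to at most 1.07 FPKM in TIPE2 libraries, against 0.688 FPKM in Vector libraries with CDH5 at 0, and leukocyte markers to at most 0.380 and 0.104 FPKM with CD3E at 0. Fibroblast markers summed to between 1.65 and 7.81 FPKM in TIPE2 libraries, against between 1.97 and 4.90 FPKM in Vector libraries. Library pairs correlated at 0.969 to 0.989 inside a group and at 0.960 to 0.985 between groups, on log2(FPKM + 1).

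All 10 members had a mean of at least 1 FPKM and were tested, and none passed the test for a difference between TIPE2 and Vector cells (limma, Benjamini-Hochberg adjusted over all genes). The smallest adjusted p among them was 0.662. Over all 12538 genes tested, 0.0239% passed. At an unadjusted p under 0.05 there were 2 members, KLF9 and KLF4, both higher in TIPE2 cells, where 5.99% of all genes tested had one in either direction and 3.01% in that direction. The groups did not overlap for the same 2 members, both higher in TIPE2 cells, and for 11.5% of all genes tested in either direction and 6.18% in that direction. In 8 of the 10 the mean of log2(FPKM + 1) was higher in TIPE2 cells, against 48.9% of all genes tested; the counts of higher and lower genes given for lists are on the same scale. The median difference over the members was 0.13 on the log2(FPKM + 1) scale, that over all genes tested -0.01. Without Vector 1 the member median was 0.015 and 6 of the 10 were higher in TIPE2 cells. Fitting the same comparison with voom on whole fragments also gave 0 members past the threshold. In bulk samples a change in the share of cells with a transcript and a change in its amount per cell cannot be told apart.

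**Figure D1:**
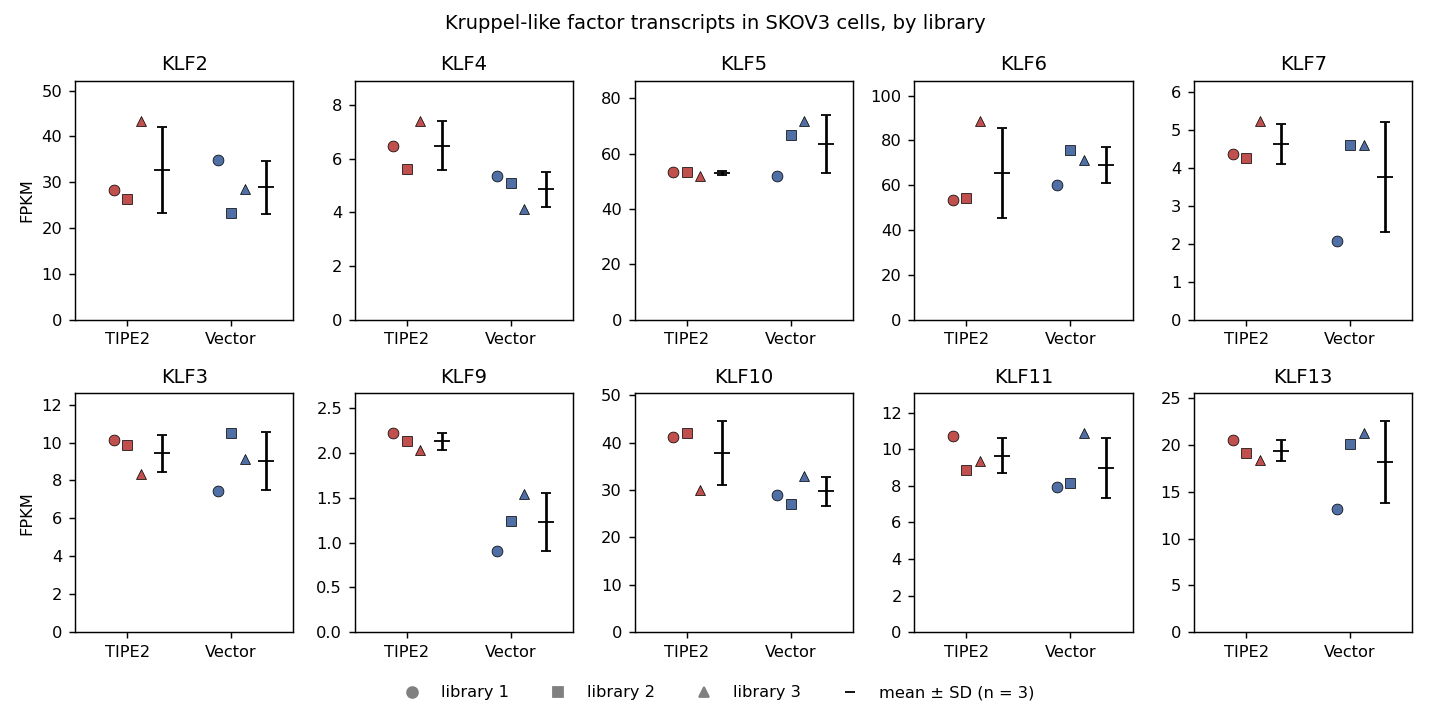
FPKM of each Kruppel-like factor transcript (vertical axis from 0) in the TIPE2 and Vector libraries; symbols mark libraries 1 to 3 and bars the mean ± SD (n = 3). The TIPE2 libraries of KLF9 (2.04 to 2.22 FPKM) and KLF4 (5.597 to 7.41 FPKM) lie above every Vector library, while the other members overlap.

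The family's levels spanned a wide range. KLF6 and KLF5 were the most abundant, with means over the 6 libraries of 67.3 ± 13.9 and 58.2 ± 8.82 FPKM (SD), and their ranges overlapped, KLF6 being above KLF5 in 5 of 6 libraries. KLF10 followed at 33.7 ± 6.42 FPKM and KLF2 at 30.8 ± 7.22 FPKM, again overlapping, with KLF10 above KLF2 in 4 of 6 libraries. KLF13 stood alone at 18.8 ± 2.92 FPKM. KLF11 at 9.32 ± 1.26 FPKM and KLF3 at 9.24 ± 1.16 FPKM could not be ordered. Below them came KLF4 at 5.67 ± 1.14 FPKM and KLF7 at 4.19 ± 1.09 FPKM, which overlapped. KLF9 was lowest at 1.68 ± 0.536 FPKM and lay under KLF7 in 6 of 6 libraries, although the highest KLF9 value exceeded the lowest KLF7 value. The summed level of the 10 transcripts was 230.7, 226.1 and 265.2 FPKM in TIPE2 1, 2 and 3, against 212.5, 242.8 and 256.3 FPKM in Vector 1, 2 and 3. The group means, 240.6 ± 21.4 FPKM in TIPE2 cells, against 237.2 ± 22.4 FPKM in Vector cells (SD, n = 3 each), differed by less than the spread between libraries. KLF5, KLF6, KLF10 and KLF2 made up between 76.4% and 80.8% of that sum in TIPE2 and between 79.5% and 82.6% in Vector libraries.

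Among the activators, KLF4 was the 1 member whose groups stood apart. KLF4 (ENSG00000136826; GRCh38 chromosome 9, 107484852 to 107490482, minus strand), which restrains division in epithelia and is one of the pluripotency factors, had 6.46, 5.597 and 7.41 FPKM in TIPE2 1, 2 and 3, against 5.35, 5.09 and 4.13 FPKM in Vector 1, 2 and 3. Every TIPE2 library was above every Vector library, with the narrowest gap between TIPE2 2 and Vector 1. The 95% Poisson intervals of these libraries, 5.03 to 6.21 FPKM in TIPE2 2 and 4.77 to 5.98 FPKM in Vector 1, overlapped. The ratio of means was 1.34 and the difference 0.35 on the log2(FPKM + 1) scale with a standard error of 0.13 (95% interval 0.04 to 0.67; limma, adjusted p = 0.802). Leaving out 1 library at a time gave differences from 0.26 to 0.44.

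KLF5 (ENSG00000102554; chromosome 13, 73054976 to 73077542, plus strand), an activator that drives proliferation of epithelial cells, had 53.3, 53.3 and 52.1 FPKM in TIPE2 1, 2 and 3, against 51.8, 66.9 and 71.9 FPKM in Vector 1, 2 and 3. The TIPE2 libraries were nearly equal, and Vector 1 lay just below them, apart from the other Vector libraries. The means were 52.9 ± 0.702 FPKM in TIPE2 cells, against 63.5 ± 10.5 FPKM in Vector cells, a difference of -0.25 (SE 0.15; limma, adjusted p = 0.834). Without Vector 1 the difference was -0.38 (adjusted p = 0.623), and without Vector 3 it was -0.15 (adjusted p = 0.799). KLF4 and KLF5, which act against each other on some intestinal and keratinocyte genes, thus had differences of opposite sign here, neither past the threshold.

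KLF6 and KLF2 shared 1 high library. KLF6 (ENSG00000067082; chromosome 10, 3775996 to 3785281, minus strand), a ubiquitous factor induced by injury and regarded as a tumour suppressor, had 53.4, 54.4 and 88.8 FPKM in TIPE2 1, 2 and 3, against 60.0, 75.7 and 71.4 FPKM in Vector 1, 2 and 3. TIPE2 3 was thus the highest of the 6 libraries and TIPE2 1 and 2 the lowest. Between 5820 and 9089 fragments lay behind these values, and the 95% Poisson intervals of 53.0 to 55.8 FPKM in TIPE2 2 and 86.9 to 90.6 FPKM in TIPE2 3, which cover counting error only, did not meet. The difference between groups was -0.11 (SE 0.21; limma, adjusted p = 0.913). It was -0.34 without TIPE2 3 (adjusted p = 0.405), 0.017 without TIPE2 1 and 0.0035 without TIPE2 2.

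KLF2 (ENSG00000127528; chromosome 19, 16324817 to 16327874, plus strand), known for keeping endothelium and resting T cells quiescent and for opposing NF-kB, had 28.2, 26.4 and 43.4 FPKM in TIPE2 1, 2 and 3, against 34.8, 23.4 and 28.4 FPKM in Vector 1, 2 and 3. TIPE2 3 was again highest and the other 5 libraries mixed. The difference was 0.16 (SE 0.22; limma, adjusted p = 0.880), and -0.06 without TIPE2 3 (adjusted p = 0.902). The spread within groups, 0.33 for KLF2 and 0.31 for KLF6 as an SD on the log2(FPKM + 1) scale, was above that of 88.4% and 86.4% of all genes tested.

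KLF7 (ENSG00000118263; chromosome 2, 207074137 to 207167267, minus strand), a factor required by developing neurons of the mouse, had 4.37, 4.26 and 5.23 FPKM in TIPE2 1, 2 and 3, against 2.08, 4.60 and 4.59 FPKM in Vector 1, 2 and 3. Vector 1 stood far below the 5 others, which were close together. With all libraries the difference was 0.29 (SE 0.23; limma, adjusted p = 0.844), and without Vector 1 it was 0.0018 (adjusted p = 0.999). KLF7 had the largest SD over the 6 libraries of all members, 0.36 on the log2 scale. A microRNA gene, MIR2355, and an intronic transcript, KLF7-IT1, lie within it on the same strand. MIR2355 had at most 0.689 FPKM in TIPE2 libraries, against at most 1.41 FPKM in Vector libraries. KLF7-IT1 had at most 0.349 FPKM in TIPE2 libraries, against at most 0.280 FPKM in Vector libraries.

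The CtBP-recruiting repressor KLF3 (ENSG00000109787; chromosome 4, 38664196 to 38701042, plus strand), known for roles in fat and blood cells of the mouse, did not separate the groups. Its values were 10.1, 9.87 and 8.32 FPKM in TIPE2 1, 2 and 3, against 7.47, 10.5 and 9.13 FPKM in Vector 1, 2 and 3. The lowest and the highest library were both Vector libraries. The difference was 0.06 (SE 0.14; 95% interval -0.26 to 0.39; limma, adjusted p = 0.920). Its antisense neighbour KLF3-AS1 had at most 0.237 FPKM in TIPE2 libraries, against 0.342 FPKM in Vector libraries. Strand treatment in counting is not given in the sources used here, so reads of the shared bases cannot be told apart.

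Of the Sin3A-recruiting members, KLF9 stood furthest from zero. KLF9 (ENSG00000119138; chromosome 9, 70384597 to 70414624, minus strand), a glucocorticoid- and thyroid hormone-responsive factor, had 2.22, 2.13 and 2.04 FPKM in TIPE2 1, 2 and 3, against 0.905, 1.25 and 1.55 FPKM in Vector 1, 2 and 3. Every TIPE2 library was above every Vector library, and the Vector libraries were more spread. The means were 2.13 ± 0.0921 FPKM in TIPE2 cells, against 1.23 ± 0.322 FPKM in Vector cells (SD, n = 3 each), a ratio of 1.73. The values rested on 221, 193 and 176 fragments in TIPE2 1, 2 and 3, against 74, 115 and 131 in Vector 1, 2 and 3. The 95% Poisson intervals of TIPE2 3 (1.75 to 2.36 FPKM) and Vector 3 (1.30 to 1.84 FPKM) overlapped. On the log2(FPKM + 1) scale, which understates changes at this level, the difference came to 0.50 with an SE of 0.14 (95% interval 0.18 to 0.81), at an unadjusted p of 0.00665 and an adjusted p of 0.662 (limma). With voom on whole fragments it was 0.82 (adjusted p = 0.524). The difference ranged from 0.39 without Vector 1 to 0.60 without Vector 3, and no left-out library brought it past the threshold.

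KLF10 (ENSG00000155090; chromosome 8, 102648779 to 102655902, minus strand), the early TGF-beta response gene that in turn limits SMAD7 expression, had 41.3, 42.0 and 30.1 FPKM in TIPE2 1, 2 and 3, against 28.95, 27.1 and 33.0 FPKM in Vector 1, 2 and 3. TIPE2 1 and 2 were above all other libraries, and TIPE2 3 was within the Vector range. The means were 37.8 ± 6.68 FPKM in TIPE2 cells, against 29.7 ± 3.03 FPKM in Vector cells, a difference of 0.33 (SE 0.16; limma, adjusted p = 0.834). Without TIPE2 3 it was 0.48 (adjusted p = 0.269). KLF10 thus had its lower TIPE2 value in the library where KLF2 and KLF6 had their highest.

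KLF11 (ENSG00000172059; chromosome 2, 10042849 to 10054836, plus strand), the close relative of KLF10 that is also induced by TGF-beta, had 10.7, 8.89 and 9.37 FPKM in TIPE2 1, 2 and 3, against 7.92, 8.14 and 10.9 FPKM in Vector 1, 2 and 3. Vector 3 was highest and the groups overlapped. Its difference was 0.10 (SE 0.14; limma, adjusted p = 0.879), and it ranged from 0.029 without Vector 1 to 0.24 without Vector 3. KLF13 (ENSG00000169926; chromosome 15, 31326855 to 31435665, plus strand), known for inducing the chemokine CCL5 in T cells, had 20.6, 19.2 and 18.5 FPKM in TIPE2 1, 2 and 3, against 13.2, 20.2 and 21.3 FPKM in Vector 1, 2 and 3. Apart from the low Vector 1 the libraries were alike. The difference was 0.11 (SE 0.18; limma, adjusted p = 0.889), and -0.09 without Vector 1 (adjusted p = 0.928).

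**Figure D2:**
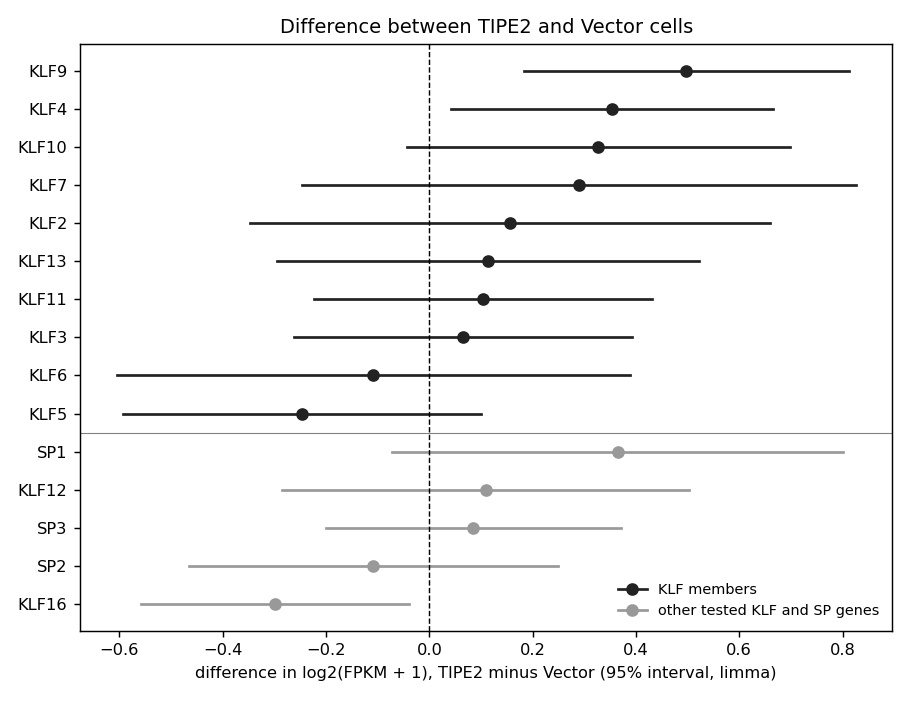
Difference in log2(FPKM + 1), TIPE2 minus Vector, for the 10 members (black) and for the other KLF and SP genes that were tested (grey), as points with 95% intervals from limma. The intervals of KLF9 (0.18 to 0.81) and KLF4 (0.04 to 0.67) lie above 0 and that of KLF16 (-0.56 to -0.04) below 0, before any adjustment for the number of genes; no gene shown passed after it.

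Read by library, the members' lowest and highest values were unevenly placed. Vector 1 held the lowest value for 6 of the 10, KLF3, KLF5, KLF7, KLF9, KLF11 and KLF13, and the highest for none. Of all genes tested, 29.6% had their lowest and 29.9% their highest value there. TIPE2 3 held the highest value for 4, KLF2, KLF4, KLF6 and KLF7, as it did for 14.3% of all genes tested. The mean deviation of the 10 from their own averages was 0.08, 0.01 and 0.14 in TIPE2 1, 2 and 3, against -0.25, -0.03 and 0.05 in Vector 1, 2 and 3. Vector 1 was also the library given the lowest weight, 0.218, when limma weighted libraries by their agreement, against 0.404 for TIPE2 3 and 1.08 to 5.33 for the others. The nearest pair of members was KLF3 and KLF13, whose profiles, each centred on its own mean, differed by a root mean square of 0.13 over the 6 libraries on the log2 scale. What sets Vector 1 apart was not tested.

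**Figure D3:**
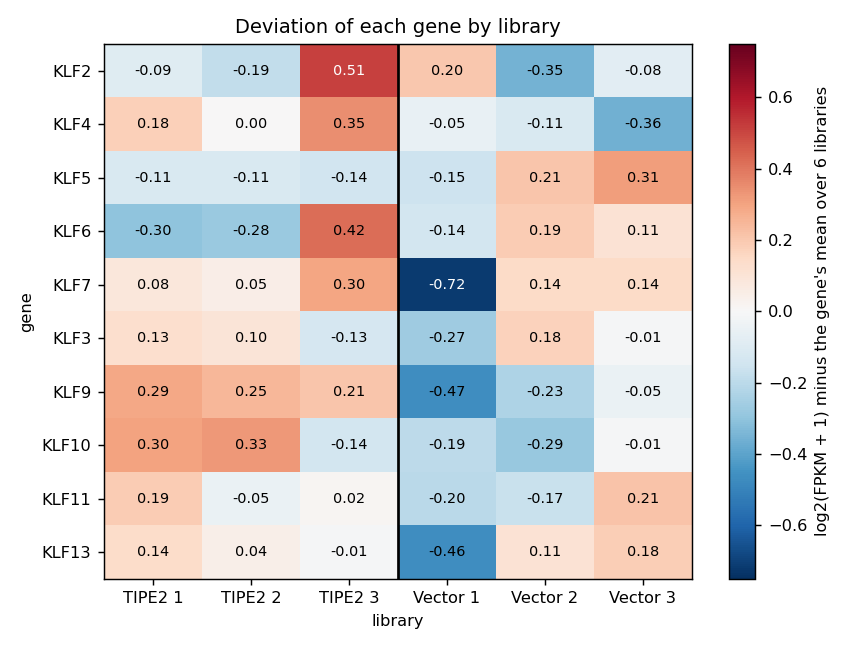
Deviation of each member from its own mean over the 6 libraries in log2(FPKM + 1), with genes down the page and libraries across, TIPE2 left of the black line and Vector right of it; red is higher and blue lower. The column of Vector 1 is blue for 9 of the 10 members, down to -0.72 for KLF7, and TIPE2 3 holds the strongest red, 0.51 for KLF2 and 0.42 for KLF6.

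Genes with the most similar profiles were sought among the 7201 genes averaging at least 5 FPKM, by the root mean square difference of centred log2(FPKM + 1) over the 6 libraries. Nearest to KLF9, the member with the smallest p, were LDB1, ZMYM3, CLCN3 and SCD, at 0.02 to 0.05. LDB1, a LIM domain-binding cofactor, had 19.4 to 19.7 FPKM in TIPE2 libraries, against 11.7 to 15.6 FPKM in Vector libraries. SCD, the stearoyl-CoA desaturase, had 19.4 to 21.1 FPKM in TIPE2 libraries, against 11.2 to 16.7 FPKM in Vector libraries. Nearest to KLF7, the member with the largest SD, were GJA1, SYNJ2, BAZ2A and GALNT10, at 0.04 to 0.09. GJA1, the gap junction protein connexin 43, had 15.8 to 19.2 FPKM in TIPE2 libraries, against 9.46 to 18.0 FPKM in Vector libraries. The offset of 1 compresses the profile of KLF9, at a mean of 1.68 FPKM, more than those of the genes searched. With a pseudocount of 0.1 the KLF9 difference was 0.77 in place of 0.50, so nearness to KLF9 holds on this scale only. These are the closest of many profiles over 6 libraries and are given as a description.

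Of the 8 other KLF genes, KLF16 and KLF12 were tested and neither passed. KLF16, a Sin3A-binding relative of KLF9 and KLF13, had 16.2, 17.1 and 19.4 FPKM in TIPE2 1, 2 and 3, against 23.0, 21.4 and 21.0 FPKM in Vector 1, 2 and 3. Every TIPE2 library was below every Vector library, as for 5.31% of all genes tested, and the difference was -0.30 (SE 0.11; limma, adjusted p = 0.798). KLF12, a CtBP-binding repressor like KLF3, had a mean of 2.28 ± 0.419 FPKM in TIPE2 cells, against 2.06 ± 0.563 FPKM in Vector cells (limma, adjusted p = 0.889). Of the 9 SP factors, which bind the same GC boxes, SP1, SP2 and SP3 were tested. SP1 had 21.5, 20.01 and 16.8 FPKM in TIPE2 1, 2 and 3, against 10.9, 16.7 and 17.8 FPKM in Vector 1, 2 and 3, with Vector 1 again lowest and the groups overlapping (difference 0.36, limma, adjusted p = 0.834; 0.16 without Vector 1). SP3 had a mean of 13.5 FPKM in TIPE2 cells, against 12.7 FPKM in Vector cells, and SP2 of 8.47 and 9.13 FPKM.

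The partners of the family were described by lists of genes, beside the 48.9% of all genes tested that had a higher mean log2 value in TIPE2 cells. Of 10 cofactors all were tested, 7 had a higher mean log2 value in TIPE2 cells, none passed, and the median difference was 0.04. The acetyltransferase KAT2B had 2.81 to 3.62 FPKM in TIPE2 libraries, against 2.33 to 2.51 FPKM in Vector libraries (limma, adjusted p = 0.833). Its groups did not overlap, as for 6.18% of all genes tested in that direction. The acetyltransferase EP300 had a mean of 7.63 ± 1.11 FPKM in TIPE2 cells, against 6.77 ± 2.67 FPKM in Vector cells. SIN3A, the scaffold of the corepressor, had 7.18 ± 0.716 FPKM in TIPE2 cells, against 6.59 ± 1.10 FPKM in Vector cells, and CTBP2 9.02 ± 1.02 and 9.58 ± 0.813 FPKM. Of 9 ubiquitin ligases reported to act on KLF proteins, 8 were tested, 4 were higher and 4 lower in mean log2 value, and none passed; the median was 0.00. ITCH, counted as higher, had 13.2 ± 0.838 FPKM in TIPE2 cells, against 13.3 ± 2.52 FPKM in Vector cells. FBXW7, which targets KLF2 and KLF5 for degradation, had 1.64 ± 0.0926 FPKM in TIPE2 cells, against 1.35 ± 0.223 FPKM in Vector cells (limma, adjusted p = 0.842). VHL had 26.1 ± 1.81 FPKM in TIPE2 cells, against 29.6 ± 3.12 FPKM in Vector cells. SIAH1 had 1.37 ± 0.165 FPKM in TIPE2 cells, against 1.64 ± 0.224 FPKM in Vector cells, and BTRC had 2.67 ± 0.352 FPKM in TIPE2 cells, against 2.32 ± 0.0210 FPKM in Vector cells.

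Upstream regulators had a higher mean log2 value in TIPE2 cells in 11 of 13 tested genes, with a median of 0.07, and none passed. SMAD4, counted among them, had 7.32 FPKM in both groups, a difference of 0.00077 on the log2 scale. EGR1, an immediate early zinc finger factor, had 641, 537 and 378 FPKM in TIPE2 1, 2 and 3, against 295, 321 and 276 FPKM in Vector 1, 2 and 3. The groups did not overlap, as for 6.18% of all genes tested in that direction, and the difference was 0.77 (SE 0.22, limma, adjusted p = 0.662). FOXO4, of the forkhead class that activates KLF2 in T cells, had 4.67, 5.74 and 4.71 FPKM in TIPE2 1, 2 and 3, against 3.10, 4.30 and 3.28 FPKM in Vector 1, 2 and 3 (limma, adjusted p = 0.755). FOXO3 had 10.1 ± 1.32 FPKM in TIPE2 cells, against 8.36 ± 1.499 FPKM in Vector cells. SMAD3, the TGF-beta signal transducer upstream of KLF10 and KLF11, had 8.22 ± 0.279 FPKM in TIPE2 cells, against 11.1 ± 2.53 FPKM in Vector cells (limma, adjusted p = 0.827).

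Of 21 reported targets of the family, 15 were tested, 5 with a higher and 10 with a lower mean log2 value in TIPE2 cells, and none passed; the median was -0.04. SMAD7, the inhibitory SMAD that KLF10 represses, had 33.0, 36.2 and 30.2 FPKM in TIPE2 1, 2 and 3, against 21.6, 25.5 and 21.1 FPKM in Vector 1, 2 and 3. All TIPE2 libraries were above all Vector libraries, with a difference of 0.53 and a standard error of 0.13 (limma, adjusted p = 0.588). A lack of overlap in that direction held for 6.18% of all genes tested. CCND1, the cyclin that KLF5 activates and KLF4 represses, had 41.5, 44.3 and 37.5 FPKM in TIPE2 1, 2 and 3, against 45.6, 75.3 and 60.9 FPKM in Vector 1, 2 and 3. Here the TIPE2 libraries were the lower ones, by 0.52 (SE 0.19; limma, adjusted p = 0.779). The urokinase gene PLAU had 26.1 ± 2.53 FPKM in TIPE2 cells, against 37.7 ± 9.75 FPKM in Vector cells. CDKN1A, the cell cycle inhibitor that KLF4 and KLF6 activate, had 8.35 ± 1.14 FPKM in TIPE2 cells, against 10.2 ± 0.906 FPKM in Vector cells. For CCND1, PLAU and CDKN1A every TIPE2 library was below every Vector library, as for 5.31% of all genes tested.

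The immediate early genes, a class to which KLF2, KLF4, KLF6 and KLF10 are often counted, had a higher mean log2 value in TIPE2 cells in 9 of 13 cases, with a median of 0.06, and none passed. Among the 9 was EGR1, also counted with the upstream regulators above, with the largest difference in either list, 0.77. ATF3, counted among the 9, had 29.5 ± 2.16 FPKM in TIPE2 cells, against 29.9 ± 7.87 FPKM in Vector cells. FOSB, an AP-1 subunit, had 80.2, 72.8 and 66.0 FPKM in TIPE2 1, 2 and 3, against 59.4, 46.7 and 32.6 FPKM in Vector 1, 2 and 3 (limma, adjusted p = 0.736). ZFP36, an mRNA decay factor, had 71.7 ± 6.29 FPKM in TIPE2 cells, against 57.2 ± 5.73 FPKM in Vector cells. The groups did not overlap for FOSB or ZFP36, as for 6.18% of all genes tested in that direction. FOSL1 had 46.2 ± 19.3 FPKM in TIPE2 cells, against 68.2 ± 12.8 FPKM in Vector cells, with TIPE2 3 at 68.3 FPKM above TIPE2 1 and 2 at 33.1 and 37.3 FPKM, the order also seen for KLF6.

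**Figure D4:**
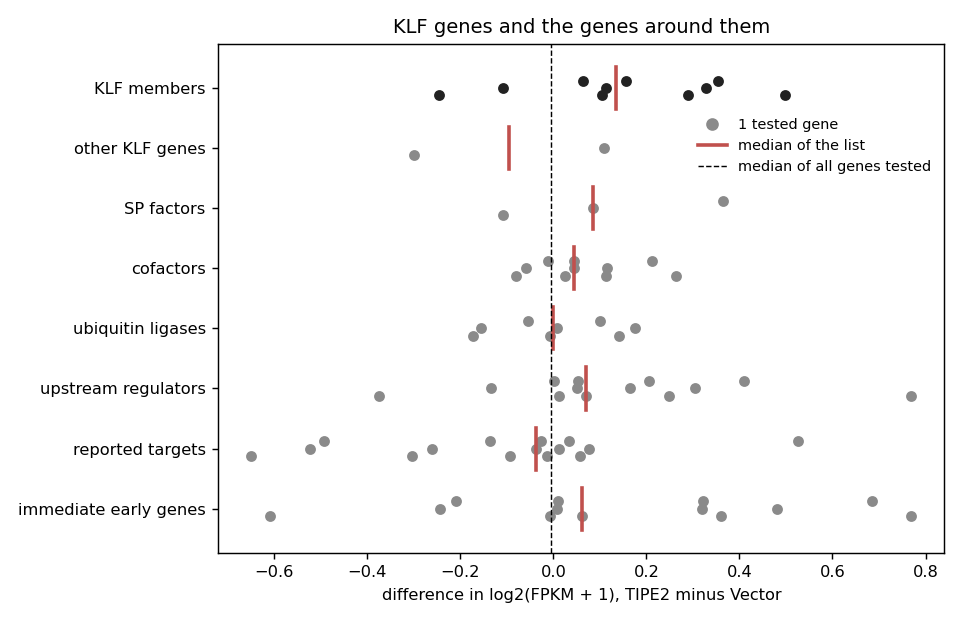
Difference in log2(FPKM + 1), TIPE2 minus Vector, of each tested gene in the KLF members and in the gene lists around them, with the median of each list in red and that of all genes tested as a dashed line. The medians lie between -0.09 for the other KLF genes and 0.13 for the members, and single genes reach 0.77 (EGR1) and -0.65 (FGFBP1).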

How the data were processed

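RNA sequencing of 6 SKOV3 libraries was analysed, 3 TIPE2 and 3 Vector, grouped by the titles in the labels. The authors deposited 1 table per library of FPKM values, per the file headers. CASAVA 1.7, Bowtie and the mouse build mm8 stand in the submitters' processing notes, whereas all 58735 identifiers are human and match GENCODE 29, whose GRCh38 coordinates are used; which build was aligned to is not settled by these sources. For the counter, its annotation and its strand setting, nothing is given in the sources used here. FPKM times merged exon length came out as whole fragments for 100% of values above 0 (tolerance 0.01), with denominators equal to median-of-ratios size factors, so the deposited values are already scaled between libraries, which assumes that most genes do not change. Fragments are not unique molecules, so Poisson intervals cover counting error only.

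On log2(FPKM + 1), limma 3.58.1 (R 4.3.3; trend and robust empirical Bayes) tested the 12538 genes that averaged at least 1 FPKM across all libraries, with a threshold of 0.05 on the Benjamini-Hochberg adjusted p. Differences are TIPE2 minus Vector and understate changes of low genes. The main limma fit alone was tested on simulated libraries, with log2 changes of at least 1 in size planted in genes averaging at least 5 FPKM. Those changes are larger than any member's difference, so the simulation does not show whether differences of the members' size would be found. Python 3.11.15 with scipy 1.17.1 gave the intervals. Libraries of a group differed by more than sampling noise, with a chi-square per degree of freedom of at least 6.09, and each was counted as 1 replicate.

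The 10 members and the gene lists were chosen with earlier results of these data known, so list counts and medians carry no test. Named were all members, the tested KLF and SP genes, up to 4 tested genes of smallest p per further list, and the 4 genes nearest in profile to the member of smallest p and to that of largest SD. The summed share of 4 members, FGFBP1, ITCH, SMAD4, ATF3, the carcinoma markers named and the MEF2 consensus were added after values or sequences were seen. Alternatives were leaving out each library, blocking on the replicate number, quantile normalization, rescaling to TPM, a pseudocount of 0.1, array weights, voom, no filter, a filter at 5 FPKM, limma with trend and robust turned off, and a further requirement of a log2 change of 1 in size. Protein sequences were not used here.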

Additional observations from a re-analysis of the deposited data

How the results depend on the processing

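No member of the family passed under any of the 15 refits or when a log2 change of 1 in size was also required. KLF9, KLF4, KLF10 and KLF11 stayed higher and KLF5 lower in TIPE2 cells in each refit that tested them, KLF11 by as little as 0.024. The smallest adjusted p of any member was 0.0694, for KLF9 with array weights (limma); KLF9 and KLF7 were not tested at a minimum of 5 FPKM. The member median was 0.018 with array weights and between 0.015 and 0.24 with 1 library left out. Over all genes, the 3 calls became 1 with the replicate block, with rescaling to TPM, with no filter or with a minimum of 5 FPKM, 157 with array weights, and between 1 and 11 with 1 library left out. With 3 libraries per group, whether the replicate numbers pair the libraries cannot be decided. The correlations of same-numbered deviations from the group means were -0.23, 0.15 and 0.19, and 3 of 6 libraries correlated best with their own number. Under the block the adjusted p of KLF9 was 0.781 (limma) and 0 members passed. With array weights the sign turned for KLF7 (-0.0067), KLF13 (-0.037), KLF12 (-0.0062) and SP2 (0.057), and EGR1, FOSB, FOSL1, SMAD3 and SMAD7 passed, with adjusted p between 0.0393 and 0.0474. With 1 library left out the sign also turned, over the ranges of -0.061 to 0.29 for KLF2, -0.052 to 0.17 for KLF3, -0.34 to 0.017 for KLF6, -0.090 to 0.23 for KLF13, -0.054 to 0.20 for KLF12, -0.20 to 0.044 for SP2, -0.030 to 0.15 for SP3, -0.12 to 0.39 for EP300 and -0.011 to 0.19 for SIN3A. With 1 library left out, list medians ranged from -0.025 to 0.066 for the cofactors, -0.10 to 0.050 for the ubiquitin ligases and 0.058 to 0.20 for the immediate early genes; the cofactors reached 0.084 with quantile normalization, and the immediate early genes were at 0.010 with a minimum of 5 FPKM. The upstream regulators were at -7.8e-05 with array weights; at a minimum of 5 FPKM the other KLF genes held KLF16 alone, at -0.30. The causes were not tested. Rescaling to TPM moved the median of all genes to 0.021.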

Other observations

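The KLF genes below the filter were listed at low levels. KLF14, a single-exon relative of KLF16, had 0.725, 0.719 and 0.672 FPKM in TIPE2 1, 2 and 3, against 1.18, 0.953 and 0.853 FPKM in Vector 1, 2 and 3. These were 41, 37 and 33 fragments in TIPE2 1, 2 and 3, against 55, 50 and 41 in Vector 1, 2 and 3. Every TIPE2 value was below every Vector value, as for 5.31% of all genes tested. The 95% Poisson intervals of TIPE2 1 (0.521 to 0.984 FPKM) and Vector 3 (0.612 to 1.16 FPKM) overlapped. KLF14 was not tested. KLF1, the erythroid factor, had at most 0.112 FPKM in TIPE2 libraries and at most 0.348 FPKM in Vector libraries. KLF8, a CtBP-binding repressor, had at most 0.173 FPKM in TIPE2 libraries and at most 0.189 FPKM in Vector libraries. KLF15 was listed at 0 in all TIPE2 libraries and had at most 0.111 FPKM in Vector libraries, KLF17 had at most 0.0202 FPKM anywhere, and KLF18 was listed at 0 in all 6 libraries. Of 10 KLF pseudogene rows, 6 were at 0 in all libraries and none exceeded 0.274 FPKM.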
